A study of Homo sapiens with 8 samples.

Results

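The RNAs described here are 7 structured noncoding RNAs of human cells: 7SK (RN7SK), both listed copies of 7SL (RN7SL1 and RN7SL2), the RNA of RNase MRP (RMRP), the RNA of RNase P (RPPH1), telomerase RNA (TERC) and a vault RNA (VTRNA1-1). They were taken from the deposited count table by Ensembl ID. RMRP and RPPH1 have 2 IDs each, so that 9 of the 60666 gene rows belong to these RNAs. The rule that chose them names IDs and sets no condition on values, but it was fixed with earlier results of these data known. The pairing of each ID with its gene name came with the list of members, because neither the table nor the reference gene table pairs Ensembl IDs with names.

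The libraries hold RNA recovered from 786-0 cells, an established line derived from a human clear cell renal carcinoma and labelled as kidney epithelium, after transfection with biotinylated microRNA duplexes for 48 h. The groups were pulldowns with miR-2355-5p (2 libraries, 18637410 and 14924700 counted reads), with miR-1271-5p (3 libraries, 10358878 to 13119672 reads) and with a control microRNA (3 libraries, 4122875 to 22864693 reads). Transfections were described as triplicate, and every miR-2355 value here rests on 2 libraries. The series was made to find RNAs bound by both microRNAs. No library of RNA before the pulldown was used here, so every level is a share of the recovered RNA. More of an RNA in the cells and a better recovery of it cannot be told apart.

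The mature microRNAs that served as bait are shown because they are the designed difference between the groups. The sequences are RefSeq's on GRCh38.p14, with the seed (bases 2 to 8, counted from the 5′ end) in capitals. The miR-2355-5p sequence lies at chr2:207110043-207110063 on the minus strand and that of miR-1271-5p at chr5:176367960-176367981 on the plus strand, and the seeds differ.
miR-2355-5p: aUCCCCAGauacaauggacaa
miR-1271-5p: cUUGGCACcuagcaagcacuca

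These RNAs are not messenger RNAs. They fold into stable structures, work as the RNA part of ribonucleoprotein particles, and are, apart from telomerase RNA, made by RNA polymerase III. 7SL is the scaffold of the signal recognition particle, which takes ribosomes that make secreted proteins to the endoplasmic reticulum. 7SK holds the kinase P-TEFb inactive and so limits transcription elongation. The RNAs of RNase P and RNase MRP are parts of enzymes that process transfer RNA and ribosomal RNA precursors, telomerase RNA is the template for telomere repeats, and vault RNAs are a small part of the vault particle.

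The 9 rows fell into 3 levels. RN7SL1 was the most abundant row of the whole table in each of the 8 libraries. VTRNA1-1 had 59 to 479 reads per library. TERC and a single RPPH1 row had at most 15 reads per library, a single RMRP row had 1 read in all, and 4 rows had none. RN7SL1 and VTRNA1-1 passed the filter on low counts and were tested. The other 7 rows did not pass it with all 8 libraries, and they are given as reads.

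**Figure D1:**
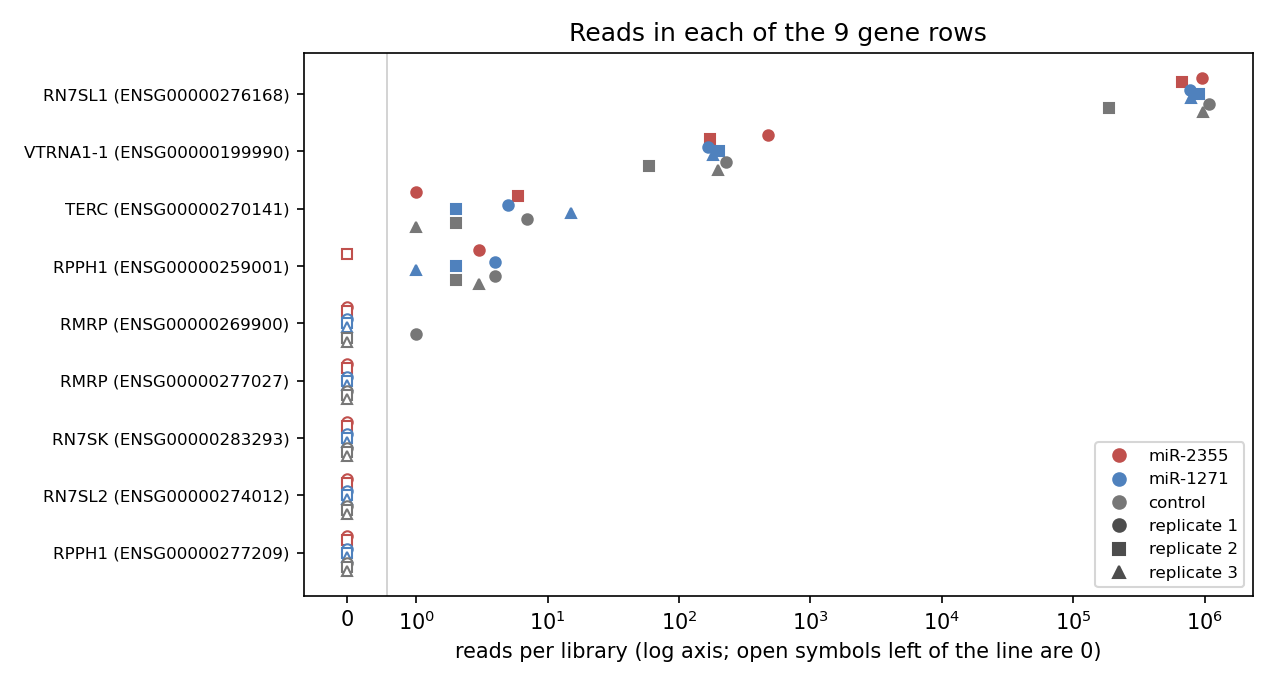
Reads per library (log axis) in each of the 9 gene rows, with colours for the pulldown and symbols for the replicate; open symbols left of the line are 0. RN7SL1 lies between 186504 and 1084442 reads, VTRNA1-1 between 59 and 479, and 4 rows are at 0 in all 8 libraries.

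RN7SL1 (ENSG00000276168) is listed by RefSeq at chr14:49586580-49586878, 299 bases long, within the span of RPS29. With miR-2355 it had 50456 and 43236 CPM, which are reads per 1000000 after TMM, a scaling of library totals that discounts the most extreme genes. With miR-1271 it had 79213, 90085 and 62089 CPM, against 46067, 42548 and 45226 CPM with the control. All 3 miR-1271 libraries stood above the 5 others, and the miR-2355 libraries lay 1 above and 1 within the range of the controls. The level averaged 46846 ± 5105 CPM (SD, n = 2) with miR-2355, 77129 ± 14114 CPM (SD, n = 3) with miR-1271 and 44614 ± 1838 CPM (SD, n = 3) with the control.

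As a part of all counted reads, this 1 row took 5.07% and 4.52% with miR-2355. It took 7.39%, 8.30% and 5.97% with miR-1271, against 4.74%, 4.52% and 4.68% with the control. It held 99.95% to 99.98% of the reads of the 9 rows in each library, so their summed share is in effect that of RN7SL1. The summed share averaged 7.22% ± 1.17 (SD, n = 3) with miR-1271 and 4.65% ± 0.11 (SD, n = 3) with the control. The exact permutation p was 0.1 (two-sided), and 6 libraries in groups of 3 can give none smaller. For miR-2355 the mean share was 4.80% ± 0.39 (SD, n = 2), 0.145 percentage points above the control and within the spread of the miR-2355 libraries (exact permutation p = 0.8, two-sided; smallest possible 0.2). Without miR-2355 replicate 1 this difference was -0.132 percentage points.

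In the fit over all 17351 tested genes, RN7SL1 rose 1.73-fold with miR-1271 over the control (log2 fold change 0.79 ± 0.22, SE; edgeR adjusted p = 0.0102). With miR-2355 its log2 fold change over the control was 0.07 ± 0.25 (SE; edgeR adjusted p = 0.866). Between the pulldowns, the 2 miR-2355 libraries lay below the 3 miR-1271 libraries. The log2 fold change of miR-2355 over miR-1271 was -0.72 ± 0.25 (SE) and did not pass (edgeR adjusted p = 0.101). It passed with the 2 microRNA groups fitted alone (-0.72, adjusted p = 0.0405) and with DESeq2 (-0.72, adjusted p = 0.000187). Without the low-count filter (-0.68, edgeR adjusted p = 0.00294) or without control replicate 1 (-0.72, edgeR adjusted p = 0.0348) it passed as well. The SE was 0.17 without the filter, 0.15 with DESeq2, 0.22 with the 2 groups alone and 0.20 without control replicate 1, against 0.25 in the main fit. DESeq2 computes its SE in its own way. The fold changes were of about the same size or smaller, and why these fits passed was not tested. The rise with miR-1271 kept its size but not its call without miR-1271 replicate 1 (0.78, edgeR adjusted p = 0.0515). Reads of 7SL cannot be assigned to 1 copy with certainty, since RefSeq lists 684 pseudogenes whose symbols begin with RN7SL and how multiply mapped reads were counted is not given in the sources used here.

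VTRNA1-1 (ENSG00000199990), RNA of the vault particle, is listed at chr5:140711276-140711373, 98 bases long, within the span of LOC105378198. With miR-2355 it had 25.6 and 11.03 CPM from 479 and 172 reads. With miR-1271 it had 17.1, 19.8 and 14.3 CPM from 165, 200 and 180 reads, against 9.69, 13.5 and 9.28 CPM from 228, 59 and 199 reads with the control. On this TMM-scaled measure the 3 miR-1271 libraries stood above all controls. As a share of all counted reads they did not: miR-1271 replicate 3 (0.00137%) lay below control replicate 2 (0.00143%). The miR-2355 libraries stood apart from each other: replicate 1 was the highest of all 8 libraries, and replicate 2 lay within the range of the controls.

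**Figure D2:**
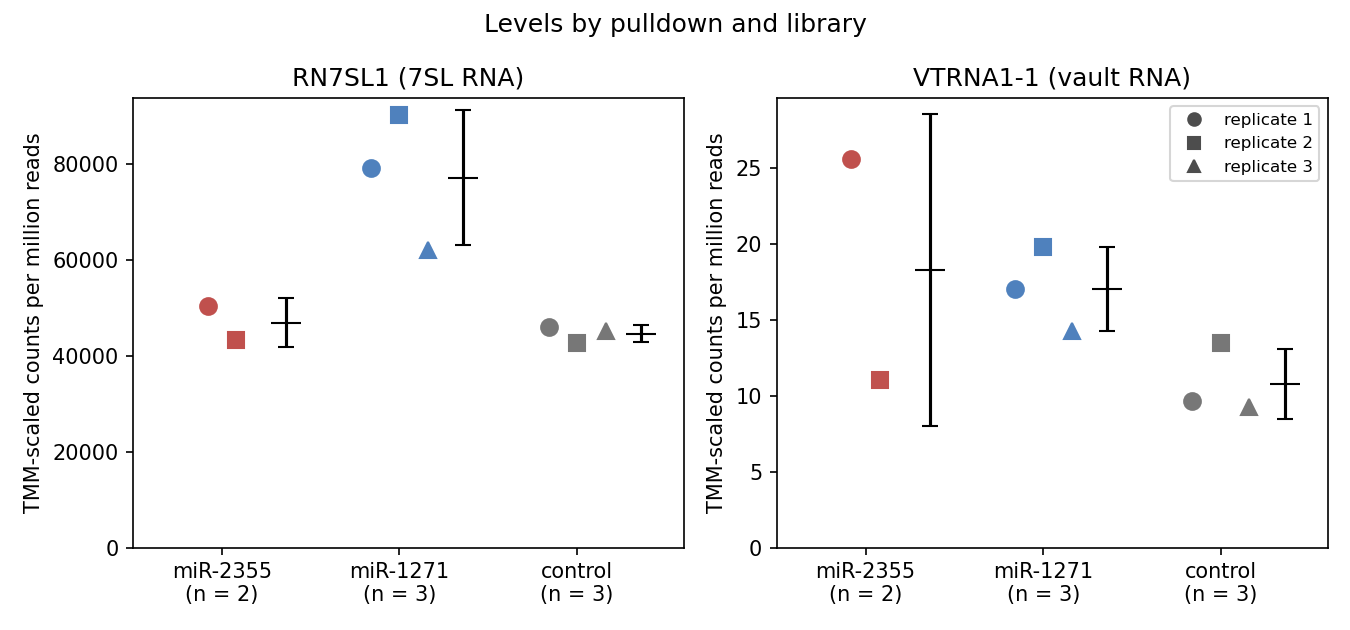
TMM-scaled CPM of RN7SL1 (left) and VTRNA1-1 (right) in each library, by pulldown; symbols mark the replicate and the bars the mean ± SD. On this scale the miR-1271 libraries lie above the controls for both RNAs. The miR-2355 libraries lie near the controls for RN7SL1 and at 25.6 and 11.03 CPM for VTRNA1-1. The share of all tested genes that separate in this way was not counted.

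VTRNA1-1 averaged 18.3 ± 10.3 CPM (SD, n = 2) with miR-2355, 17.04 ± 2.77 CPM (SD, n = 3) with miR-1271 and 10.81 ± 2.31 CPM (SD, n = 3) with the control. It rose 1.64-fold with miR-1271 (log2 fold change 0.72 ± 0.25, SE; edgeR adjusted p = 0.0327). It was also called higher with miR-2355, at 1.78-fold (log2 fold change 0.83 ± 0.27, SE; edgeR adjusted p = 0.0281), but without miR-2355 replicate 1 the log2 fold change was 0.11 (edgeR adjusted p = 0.817) and without miR-2355 replicate 2 it was 1.31 (adjusted p = 0.000605). In both fits the lone miR-2355 library is assumed to vary as the libraries of the other groups do. For miR-2355 over miR-1271 its log2 fold change was 0.12 ± 0.26 (SE; edgeR adjusted p = 0.842), and this became -0.61 without miR-2355 replicate 1 (adjusted p = 0.219).

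The calls of VTRNA1-1 also depended on which control libraries were used. With miR-2355 it did not pass without control replicate 1 (0.78, edgeR adjusted p = 0.0677) or 3 (0.73, adjusted p = 0.109). With miR-1271 it did not pass without control replicate 1 (0.66, edgeR adjusted p = 0.0818) or 3 (0.62, adjusted p = 0.133), nor without miR-1271 replicate 1 (0.72, adjusted p = 0.0685) or 2 (0.61, adjusted p = 0.121). Without control replicate 2 it passed with both microRNAs, at 0.96 with miR-2355 (edgeR adjusted p = 0.0113) and 0.84 with miR-1271 (adjusted p = 0.0137). Scaled by library totals alone, its log2 fold change with miR-1271 was 0.57 (edgeR adjusted p = 0.0726). Its direction over the control was upward in each of these fits.

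Of the 2 tested rows, 1 was called higher with miR-2355 and 2 with miR-1271 over the control, and none was called lower. Over all tested genes, 12.3% were called higher and 17.5% lower with miR-2355, and 17.6% higher and 22.5% lower with miR-1271. Between the pulldowns the edgeR quasi-likelihood test called 0 of the 2 rows, against 3.5% of all tested genes called higher and 2.65% lower with miR-2355. At an unadjusted p under 0.05 it called 1, RN7SL1, lower with miR-2355, as it did 11.5% of all tested genes. DESeq2 after adjustment called the same row lower, against 4.09% of the genes to which it gave an adjusted p. With 2 rows these counts describe the rows and say nothing particular to structured RNAs. The same holds for the separation of the miR-1271 libraries from the controls, since its share over all tested genes was not counted. Both comparisons with the control use the same 3 control libraries.

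The place of each log2 fold change among those of all tested genes differed by comparison. That of RN7SL1 with miR-1271 over control lay above 91.4% of them and that of VTRNA1-1 above 89.3%. With miR-2355 over control the values were 55.7% for RN7SL1 and 94.6% for VTRNA1-1. For miR-2355 over miR-1271 they were 5.65% for RN7SL1 and 63.3% for VTRNA1-1. All tested genes had median log2 fold changes over the control of -0.0046 with miR-2355 and 0.0055 for miR-1271.

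**Figure D3:**
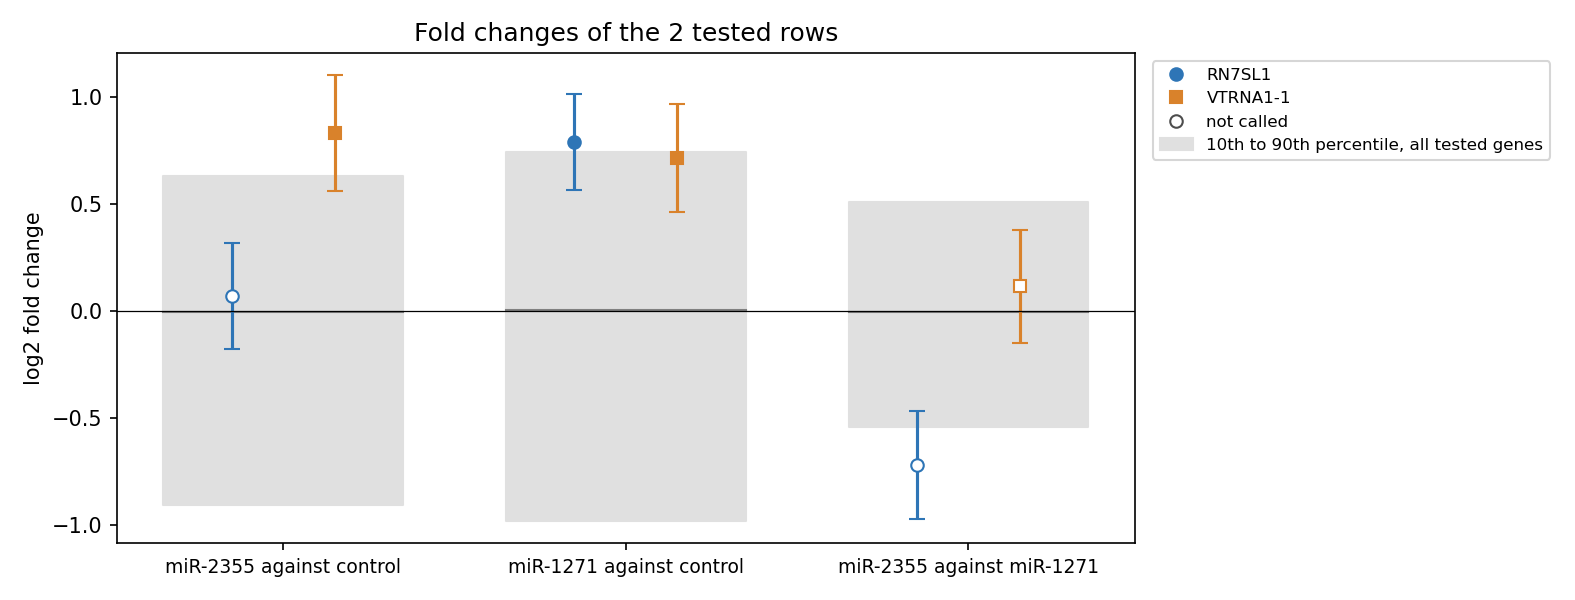
Log2 fold changes of RN7SL1 and VTRNA1-1 in the 3 comparisons, with the approximate SE as bars and open symbols for values that did not pass (edgeR adjusted p under 0.05); grey bands span the 10th to 90th percentile of all 17351 tested genes. RN7SL1 stands at 0.07, 0.79 and -0.72 and VTRNA1-1 at 0.83, 0.72 and 0.12, from left to right.

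Per base of RNA length, RN7SL1 far exceeded VTRNA1-1. Scaled to the RefSeq lengths, RN7SL1 averaged 156680 ± 17077 TMM-scaled CPM per kilobase (SD, n = 2) with miR-2355, 257960 ± 47203 (SD, n = 3) with miR-1271 and 149210 ± 6147 (SD, n = 3) with the control. On the same scale VTRNA1-1 averaged 187 ± 105 (SD, n = 2) with miR-2355, 174 ± 28.2 (SD, n = 3) with miR-1271 and 110.3 ± 23.5 (SD, n = 3) with the control.

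The ratio of the 2 RNAs within a library does not depend on the scaling. The log2 ratio of RN7SL1 to VTRNA1-1 reads per base was 9.34 and 10.33 with miR-2355. It was 10.57, 10.54 and 10.48 with miR-1271, against 10.61, 10.02 and 10.64 with the control. The miR-1271 values lay within the range of the controls, with a difference in means of 0.11 (exact permutation p = 1.0, two-sided; smallest possible 0.1). With miR-2355 replicate 1 had the lowest value of all 8 libraries, and the difference in means from the control was -0.59 (exact permutation p = 0.4, two-sided; smallest possible 0.2).

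**Figure D4:**
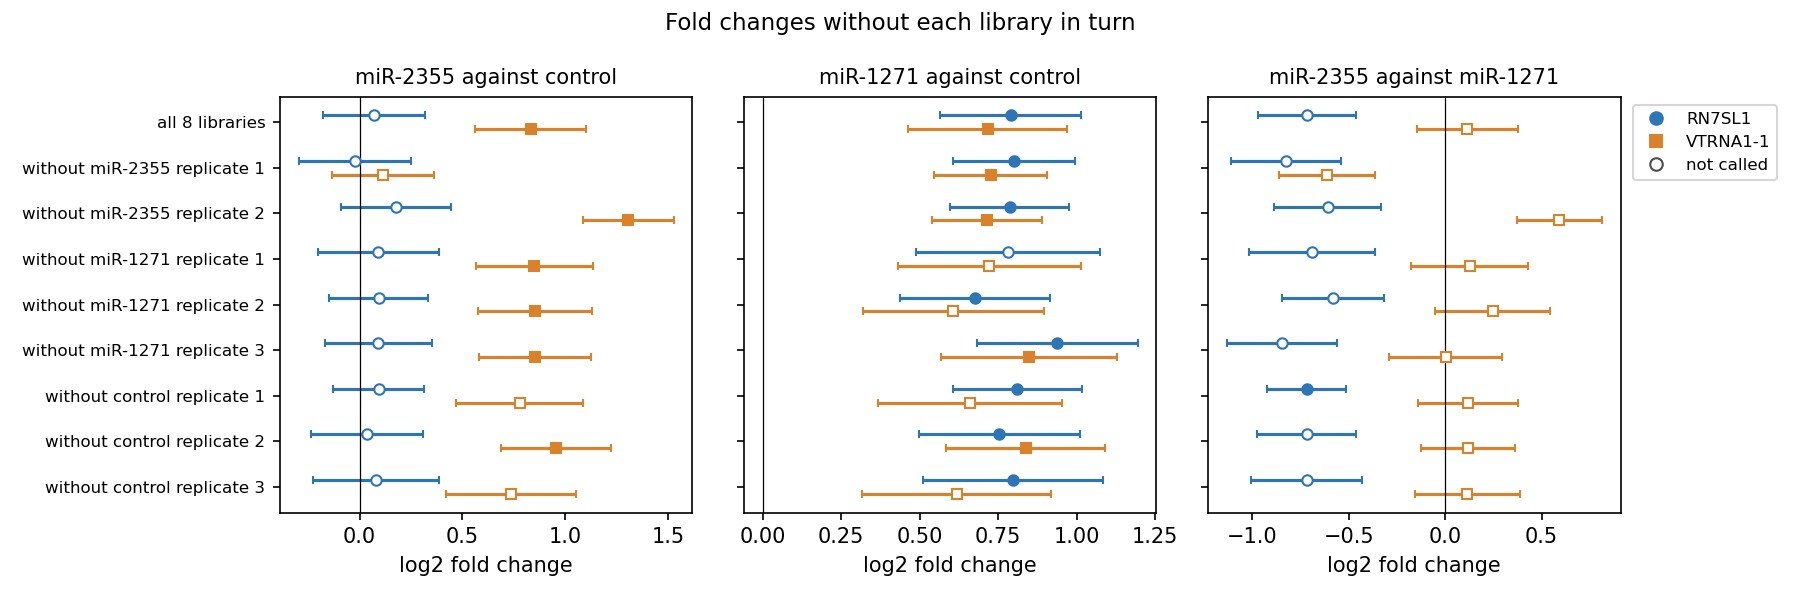
Log2 fold changes of RN7SL1 and VTRNA1-1 in the 3 comparisons with all 8 libraries and without each library in turn, with the approximate SE as bars and open symbols for values that did not pass (edgeR adjusted p under 0.05). RN7SL1 with miR-1271 over control stays between 0.68 and 0.94, whereas VTRNA1-1 with miR-2355 over control spans 0.11 to 1.31.

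Telomerase RNA was near the limit of these libraries. TERC (ENSG00000270141, chr3:169764610-169765060, 451 bases) had 1 and 6 reads with miR-2355 and 5, 2 and 15 reads with miR-1271, against 7, 2 and 1 reads with the control. No group stood apart from the others, and miR-1271 replicate 3 held 15 of the 22 reads of its group. The ratio of pooled read shares was 3.05 for miR-1271 over control (exact 95% interval 1.39 to 7.21). It was 1.57 (0.506 to 4.56) without miR-1271 replicate 3, 1.92 (0.848 to 4.73) without control replicate 3 and 5.29 (1.59 to 27.6) without control replicate 1. The interval included 1 without either of those replicate 3 libraries. For miR-2355 over control the ratio was 0.995 (0.321 to 2.90) from 7 and 10 reads. Leaving out miR-2355 replicate 2 made it 0.256 and leaving out miR-2355 replicate 1 made it 1.92. It was 1.73 without control replicate 1 and 0.625 without control replicate 3. For miR-2355 over miR-1271 it was 0.326 (0.118 to 0.791), 0.084 (0.00204 to 0.520) without miR-2355 replicate 2 and 0.629 (0.209 to 1.60) when replicate 1 of that group was left out. It was 0.635 (0.190 to 2.12) without miR-1271 replicate 3. With so few reads, and with each ratio moved by single libraries, no difference in TERC was read from them. Fitted without the low-count filter, TERC had a log2 fold change of 1.58 with miR-1271 over control and did not pass (edgeR adjusted p = 0.110).

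The RNase P RNA was seen in the same way. The RPPH1 row ENSG00000259001 had 3 and 0 reads with miR-2355 and 4, 2 and 1 reads with miR-1271, against 4, 2 and 3 reads with the control. The ratio of pooled read shares was 0.474 for miR-2355 over control (exact 95% interval 0.0825 to 1.90) and 1.08 for miR-1271 over control (0.341 to 3.25), so neither interval excludes equal shares. The ratio of miR-2355 to miR-1271 was 0.440 (0.0734 to 1.93). All of the miR-2355 reads came from replicate 1. The ratios over control were 0.853 when miR-2355 replicate 2 was left out and 0.660 when miR-1271 replicate 1 was. The ratio between the microRNAs was then 0.792 and 0.717. These intervals and the limits for rows at 0 cover counting error only and leave out the variation between libraries. They also treat reads as separate, though several reads can stem from 1 molecule.

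Of the RNase MRP RNA, the row ENSG00000269900 had 1 read, in control replicate 1, and 0 in the other libraries. The rows of RN7SK (ENSG00000283293), RN7SL2 (ENSG00000274012), RMRP (ENSG00000277027) and RPPH1 (ENSG00000277209) had 0 of 115709626 reads in the 8 libraries together. For a count of 0 the limit was set at a fixed 3 reads, which is not an exact interval like those above. Over all libraries this is 0.0259 CPM without TMM scaling. For single libraries the limit ran from 0.131 CPM in control replicate 1 to 0.728 in control replicate 2. RN7SL2 is listed with the same length as RN7SL1, at 299 bases on chromosome 14, and had no read where the RN7SL1 row had 6319375.

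These zeros limit the rows and not the RNAs. 7SK and the RNAs of RNase P and RNase MRP are made in all human cells, so a row at 0 was not read as absence of the RNA. Both RMRP and RPPH1 have more than 1 ID for what RefSeq lists at 1 place, at chr9:35657750-35658019 for RMRP and at chr14:20343071-20343411 for RPPH1. How featureCounts was set to treat reads that fall on more than 1 gene ID is not given in the sources used here, and its part in the zeros was not tested. RefSeq lists 293 pseudogenes whose symbols begin with RN7SK, and RN7SK itself at chr6:52995620-52995951. The pulldowns can therefore not be compared for 7SK, RN7SL2 or RMRP. For RPPH1 they were compared only by the 19 reads of the row that had any. What part of the RNase P RNA that row holds is not known.

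Among 13505 other tested rows with a mean log2 CPM of at least 1, the pattern over the 8 libraries most like that of RN7SL1 was that of ENSG00000143862 (Pearson r of log2 CPM 0.990). That row averaged 24.2 ± 1.6 CPM (SD, n = 2) with miR-2355, 32.6 ± 3.0 CPM (SD, n = 3) with miR-1271 and 24.7 ± 0.4 CPM (SD, n = 3) with the control. The row most like VTRNA1-1 was ENSG00000259932 (r = 0.974), at 68.9 ± 54.0 CPM (SD, n = 2) with miR-2355, 65.02 ± 16.1 CPM (SD, n = 3) with miR-1271 and 30.6 ± 5.4 CPM (SD, n = 3) with the control. Its miR-2355 libraries also stood far apart from each other. These correlations are descriptions over 8 points that share libraries and groups, and the IDs carry no names here.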

How the data were processed

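The deposited table holds raw read counts per Ensembl gene ID, 1 column per library, not normalized by the authors. Per the submitters' processing notes, BWA and featureCounts were used with hg38 and GRCh38; no source used here gives versions, annotation, strand setting or the handling of multiply mapped reads. Counts were fitted with edgeR 4.0.16 in R 4.3.3: filterByExpr kept 17351 genes, libraries were scaled by TMM, and glmQLFit and glmQLFTest were run with 1 mean per group over all 8 libraries. Calls needed an adjusted p (Benjamini-Hochberg over all tested genes) under 0.05. Approximate standard errors were computed as the absolute log2 fold change over the root of F. The alternatives were DESeq2 1.42.0, other scalings, no filter, 2-group fits, a replicate block, summed RN7SL1 and RN7SL2 rows and each library left out. On simulated data with the same spread for all genes, the procedure was tested only for the recovery of known fold changes. The rate of false calls was not tested. Rows under the filter are given as reads, with exact (Clopper-Pearson) intervals on ratios of pooled reads.

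Because 0 genes of the reference table carry an Ensembl ID, planned lists of protein partners, neighbours, related RNAs and cell type markers were not used here. The rule for rows most like a member took 2 per tested member, of which the closest is printed. No 2 libraries of a group agreed within sampling noise (chi-square test over genes). Whether libraries came from separate cultures is not stated, so the spread behind p-values may be technical; no batch is named. Members, lists and tests were chosen with earlier results of these data known.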

Additional observations from a re-analysis of the deposited data

How the results depend on the processing

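Over 17 alternatives per comparison, RN7SL1 with miR-1271 over control had log2 fold changes of 0.64 to 0.94 and passed in 16. VTRNA1-1 over control was upward in all 17 with each microRNA and passed in 13 with miR-2355 and 12 with miR-1271. The count of called rows with miR-2355 over control was 0 with a replicate block and 0 to 1 on leaving out a library. With miR-1271 over control it was 1 with library totals alone and 0 to 2 on leaving out a library. Between the pulldowns it was 1 without the low-count filter, with DESeq2, with the 2 groups alone and without control replicate 1. It was 0 without control replicate 2 or 3 and without each miR-1271 library. Among the alternatives, the share of all genes called was taken only with DESeq2 between the pulldowns (4.09% lower). The other counts therefore cannot be set against all genes. The sign of RN7SL1 with miR-2355 over control turned to -0.0024 with a replicate block and ran from -0.024 to 0.18 on leaving out a library. That of VTRNA1-1 between the pulldowns turned to -0.028 with a replicate block and ran from -0.61 to 0.59 on leaving out a library. None of these values passed. With a replicate block, VTRNA1-1 with miR-2355 over control was 0.68 (edgeR adjusted p = 0.119). The replicate numbers are not known to pair libraries: deviations from the group means correlated at -0.103 to 0.0185 between libraries of the same number. The summed share of the 9 rows differed between miR-2355 and control by 0.145 percentage points, and by -0.132 to 0.421 on leaving out a library. For miR-1271 over control it ranged from 2.03 to 3.20 and between the pulldowns from -3.05 to -1.89, all alternatives included. Summing the RN7SL1 and RN7SL2 rows changed nothing, since RN7SL2 is at 0, so it repeats the main fit. The tallies over 17 alternatives include this repeat and fits without a library of the group not compared. They are not 17 separate checks. Leaving RN7SL1 out of the library totals changed no call; this, and leaving libraries out of the ratios of TERC and RPPH1, were chosen after seeing the data. RMRP had 1 read, too few to test. TERC and RPPH1, with few reads, never passed without the low-count filter (edgeR adjusted p from 0.110, 2 of TERC under 0.05 unadjusted). TERC with miR-2355 over control was -0.0070 there, and -1.80 without miR-2355 replicate 2 but 0.89 without miR-2355 replicate 1, where it passed the filter. The cause of the lost calls was not tested.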
